A study of Mus musculus with 23 samples.

Results

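The mRNA levels of 10 members of the Bcl2 family were followed while C2C12 cells, a mouse myoblast line, left growth medium and formed muscle. The members were chosen by their gene symbols: the survival proteins Bcl2, Bcl2l1 (Bcl-xL) and Mcl1, the effectors Bax and Bak1, and the BH3-only proteins Bbc3 (Puma), Pmaip1 (Noxa), Bcl2l11 (Bim), Bid and Bad. The choice was made with earlier results of these data known. All 10 were among the 32793 rows of the gene table, and all 10 passed the filter on low counts that left 14187 genes for testing. The cells were either control (WT) or labelled as a Runx1 knockout (Runx1KO, here the labelled KO), and carried no other stated change. Day 0 is growth medium, which held 20% fetal bovine serum, and the later harvests came 1, 3 or 6 days after the switch to differentiation medium with 2% horse serum. The series text gives 5 days for the last harvest, and the 6 of the sample titles was used here. Each of the 8 groups of genotype and day held 3 libraries except WT day 0, which held 2, giving 23 libraries of poly(A) RNA in all. The labels do not say whether the KO is 1 clone or several, nor whether the replicates are separate cultures. The p-values therefore measure only the spread between these libraries, which may be technical.

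Proteins of this family decide whether the outer mitochondrial membrane stays intact. Bax and Bak1 can form pores in it that release cytochrome c and start the caspase cascade, the survival members hold them in check, and BH3-only proteins bind the survival members or act on the effectors directly. In muscle cultures some myoblasts die when serum is withdrawn while others leave the cell cycle and fuse, so the family has been followed in this setting. Much of its control is at the level of protein (phosphorylation, cleavage and turnover), which mRNA levels do not show.

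Total estimated counts per library ran from 22197606 to 23684077. The mRNA of Runx1, the targeted gene, went against the label: it averaged 84.0, 102, 149 and 153 CPM (counts scaled to a common library size) in WT on days 0, 1, 3 and 6, and 119.8, 131, 217 and 311 CPM in the libraries labelled KO. The gene table does not separate exons, so it does not show whether the transcript was altered, and every direction between genotypes below is between libraries by their labels. Muscle identity was visible in the markers: 8 myotube genes summed to 2.18 to 2.46 CPM in WT on day 0 and 1650 to 1913 on day 6, and to 1.81 to 3.27 and 9266 to 11427 CPM in the labelled KO. Markers of other cell types were low, but some moved with day or genotype, and their part in the results below was not tested. The 4 macrophage markers summed to 2.29 to 2.32 CPM in WT and 1.54 to 1.91 in the labelled KO on day 0, and to 4.24 to 7.78 and 10.1 to 12.2 CPM on day 6, with both tested genes higher on day 6 in each genotype. Of that list Adgre1 was at 0 in every group and Ptprc in every group but WT day 6. The 4 fibroblast markers, with Thy1 at 0 throughout, went from 15.1 to 16.5 CPM on day 0 to 48.5 to 54.5 on day 6 in WT and from 6.63 to 11.2 to 61.3 to 85.5 CPM in the labelled KO. The 5 adipocyte markers, with Adipoq at 0 throughout, summed to 27.3 to 45.8 CPM in WT and 14.2 to 24.9 in the labelled KO over the 4 days. Osteoblast and endothelial markers each summed to under 1 CPM in all libraries. Replicate 2 of the labelled KO on day 1 stood apart from its replicates. Its deviation from them correlated across 13265 genes (93.5% of those tested) with the GC content of the transcripts (r = -0.65, a description within 1 library, since genes are not independent replicates). For the members its log2 deviation was -0.88 for Bbc3, -0.82 for Bak1, -0.56 for Bax, -0.51 for Bcl2l1 and 0.61 for Pmaip1, and between -0.22 and 0.29 for the other 5. Called results on labelled KO day 1 for Bax, Bak1, Bbc3 and Pmaip1 are given with and without that library, as is the call of Bcl2 that it ended.

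The members differed widely in abundance. On the TPM scale, which corrects for transcript length and so allows genes to be compared, the means over the 23 libraries were 213 for Bax, 125 for Bak1, 76.1 for Mcl1, 54.4 for Bad, 35.6 for Bcl2l1, 25.1 for Bid, 11.1 for Bbc3, 8.59 for Bcl2l11, 5.67 for Pmaip1 and 1.70 for Bcl2. The effectors thus had the highest mRNA levels, and Bcl2 itself, which gave the family its name, had the lowest, with 79 to 264 counts per library. The values of single members by library are given below in CPM of the composition-scaled library, which is not corrected for length and serves to compare a gene with itself. With the groups ordered by mean CPM, 5 of the 7 adjacent pairs of groups overlapped in their libraries for 8 members, 6 for Mcl1 and all 7 for Bad. The same measure over all genes is not given, so these counts only describe the members. The plot of counts by library shows each value.

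**Figure D1:**
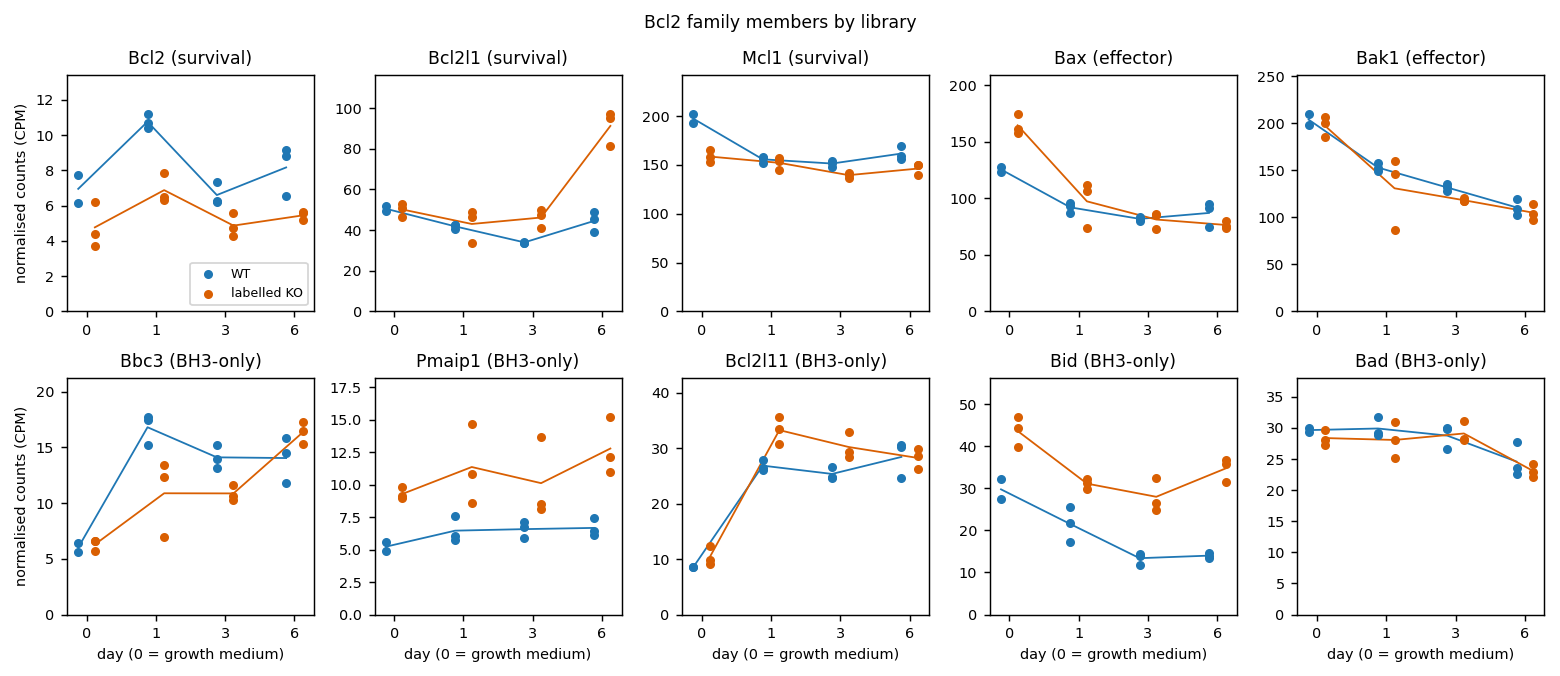
Normalised counts (CPM, linear axes from 0) of each member against day, with 1 point per library and a line through the group means, WT in blue and the labelled KO in orange. Bcl2l11 and Bbc3 were low on day 0 and higher on every later day in both genotypes, Bax and Bak1 fell, and Bcl2l1 in the labelled KO stood at 81.6 to 97.1 CPM on day 6, above every other library.

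The promoters were read because the targeted gene encodes a DNA-binding factor. The RefSeq table for GRCm38.p6 was used, the assembly that mm10 names. For 9 of the members 15 windows were read, each from 250 bases before to 50 after a start. Pmaip1 was left out of this search. Both strands were searched for the Runx core TGTGGT, the Ets core CCGGAA and the E-box CANNTG of the muscle regulators. An E-box ends in TG and can share those letters with a Runx core, and such overlaps were not removed. The Runx core was in 1 window, of Bak1 (-221 from the start), and in 16.8% of all 32851 promoters. The Ets core was in 5 windows of 5 members (Bad, Bcl2l1, Bcl2l11, Bid and Mcl1), and in 14.9% of all. The E-box was in 10 windows of 6 members, and in 72.3% of all. A match is a run of letters, not a bound site. The 250 bases before the start are shown, 5′ to 3′ on the gene strand. They are given for Bak1 (the only Runx match among the 9 members searched), Bcl2l1 and Bid (the largest genotype differences) and Bcl2l11 (the largest change with time). Capitals mark a Runx or Ets match. In Bcl2l1 the Ets match lay at +35 and so outside the bases shown.
Bak1, chr17:27028628-27028877, minus strand: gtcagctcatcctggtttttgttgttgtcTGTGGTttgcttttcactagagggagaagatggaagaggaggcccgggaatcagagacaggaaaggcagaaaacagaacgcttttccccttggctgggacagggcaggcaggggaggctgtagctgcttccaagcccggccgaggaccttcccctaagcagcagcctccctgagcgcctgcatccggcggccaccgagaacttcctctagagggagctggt
Bcl2l1, chr2:152831729-152831978, minus strand: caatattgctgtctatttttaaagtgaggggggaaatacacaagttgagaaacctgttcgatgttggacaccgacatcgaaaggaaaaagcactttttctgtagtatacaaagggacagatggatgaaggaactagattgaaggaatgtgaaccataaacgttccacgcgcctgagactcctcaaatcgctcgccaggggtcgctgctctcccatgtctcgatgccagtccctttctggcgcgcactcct
Bcl2l11, chr2:128125788-128126037, plus strand: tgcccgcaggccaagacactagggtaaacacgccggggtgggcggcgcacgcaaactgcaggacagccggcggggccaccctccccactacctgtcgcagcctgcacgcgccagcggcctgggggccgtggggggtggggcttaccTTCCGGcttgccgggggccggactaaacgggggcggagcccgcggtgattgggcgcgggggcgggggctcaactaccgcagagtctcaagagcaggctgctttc
Bid, chr6:120916825-120917074, minus strand: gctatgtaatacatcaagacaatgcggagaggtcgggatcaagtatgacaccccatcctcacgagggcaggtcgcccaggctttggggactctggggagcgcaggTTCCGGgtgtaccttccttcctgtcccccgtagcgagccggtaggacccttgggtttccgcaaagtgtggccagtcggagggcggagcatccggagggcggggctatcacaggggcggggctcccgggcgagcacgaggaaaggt

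In the annotation of the same assembly (GENCODE M21) these 4 protein-coding genes span chr17:27019810-27029009 (Bak1), chr2:152780668-152831728 (Bcl2l1), chr2:128126038-128162547 (Bcl2l11) and chr6:120891930-120916853 (Bid). For Bak1 and Bid the RefSeq start lies inside the GENCODE span, so the bases shown overlap the annotated gene.

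Among the survival members, Bcl2l1 separated the genotypes late in differentiation. Its protein, Bcl-xL, guards the mitochondrial membrane against Bax and Bak1. In WT it stood at 49.4 and 51.6 CPM on day 0, 42.4, 42.6 and 40.5 on day 1, 33.7, 34.3 and 33.8 on day 3 and 45.3, 48.7 and 39.2 on day 6. For the labelled KO the values were 52.9, 50.8 and 46.6 on day 0, 48.9, 33.5 and 46.6 on day 1, 49.9, 41.0 and 47.6 on day 3 and 81.6, 95 and 97.1 on day 6. The genotypes overlapped on days 0 and 1 and did not on days 3 and 6, and the 3 labelled KO libraries of day 6 were the highest of all 23. In WT the mRNA fell by 0.57 on the log2 scale on day 3 (log2 fold change, log2FC, -0.57, standard error, SE, 0.12, n = 3 against 2, edgeR adjusted p = 0.000359, with an adjusted p under 0.05 as the threshold throughout) and was not past the threshold on day 6. In the labelled KO it rose 1.82-fold by day 6 (log2FC 0.86, SE 0.11, n = 3 against 3, edgeR adjusted p = 2.3e-07). Against WT it was 1.36-fold higher on day 3 (log2FC 0.44, SE 0.11, edgeR adjusted p = 0.00251) and 2.05-fold higher on day 6 (log2FC 1.04, SE 0.11, edgeR adjusted p = 5.11e-08). Both differences passed in all 15 alternatives, at log2FC 0.29 to 0.52 and 0.89 to 1.11.

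Several context lists also differed between the genotypes on day 6, and their part in the rise of Bcl2l1 was not tested. On day 6 the 20 muscle differentiation genes summed to 15249 to 18724 CPM in the labelled KO and 3851 to 4101 in WT. The 20 interferon response genes summed to 1377 to 1793 against 89.1 to 106 CPM, and the 20 cell cycle genes to 1242 to 1327 against 1016 to 1201. On day 0 the cell cycle genes had summed to 4629 to 4982 CPM in the labelled KO. The muscle genes had then summed to 1609 to 1698 CPM in the labelled KO and 999 to 1042 in WT. In bulk RNA a larger share of fused cells and more Bcl2l1 mRNA per cell cannot be told apart, which holds for every member below.

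Bcl2, the founding survival member, was lower in the labelled KO throughout. WT libraries held 7.74 and 6.16 CPM on day 0, 10.7, 11.2 and 10.4 on day 1, 6.27, 7.32 and 6.20 on day 3 and 6.53, 8.83 and 9.14 on day 6. In libraries labelled KO the values were 4.40, 3.69 and 6.21 on day 0, 6.32, 7.83 and 6.49 on day 1, 4.25, 5.58 and 4.76 on day 3 and 5.56, 5.16 and 5.62 on day 6. Day 1 was the highest day in both genotypes, and the genotypes overlapped on day 0 only. Against WT, Bcl2 was lower by a log2FC of -0.54 on day 0 (SE 0.19, edgeR adjusted p = 0.0474), -0.64 on day 1 (SE 0.16, edgeR adjusted p = 0.0023), -0.44 on day 3 (SE 0.17, edgeR adjusted p = 0.0393) and -0.58 on day 6 (SE 0.16, edgeR adjusted p = 0.00601). The day 1 and day 6 differences passed in all 15 alternatives. The day 0 call ended in 9 of 14 alternatives (adjusted p 0.00596 to 0.494), among them without labelled KO replicate 1 (-0.46) or 2 (-0.39) and without WT replicate 1 (-0.35) or 2 (-0.70). The day 3 call ended without labelled KO day 3 replicate 1 (-0.35) or 3 (-0.42) and without WT day 3 replicate 1 (-0.47), 2 (-0.40) or 3 (-0.48), with adjusted p 0.0171 to 0.148 over its alternatives.

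The day 1 peak of Bcl2 was 1.55-fold over day 0 in WT (log2FC 0.63, SE 0.18, edgeR adjusted p = 0.00508) and 1.44-fold in the labelled KO (log2FC 0.53, SE 0.17, edgeR adjusted p = 0.0114). Both calls depended on single libraries and on the setting. The WT value was 0.47 and not past the threshold without WT day 0 replicate 2, and likewise 0.47 on log2(TPM + 0.1) (adjusted p 0.000643 to 0.103 over its alternatives). Within the labelled KO it was 0.38 without day 0 replicate 2, 0.43 without day 1 replicate 2 and 0.54 with only the groups compared, none past the threshold (adjusted p 0.000948 to 0.0874). By days 3 and 6 Bcl2 was not past the threshold against day 0 in either genotype with all libraries. Without labelled KO day 0 replicate 3 its day 6 value there was 0.43 and passed, against 0.19 with all libraries (adjusted p 0.036 to 0.895 over its alternatives). An annotated antisense gene, D630008O14Rik, shares 558 exonic bases with Bcl2, and without strand their reads cannot be told apart.

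Mcl1, a survival protein known for its fast turnover, was the most abundant mRNA on the survival side and varied little, 1.41-fold between its highest and lowest group mean. WT libraries held 202 and 192 CPM on day 0, 152, 157 and 158 on day 1, 152, 154 and 148 on day 3 and 169, 159 and 156 on day 6. Those labelled KO held 153, 165 and 158 on day 0, 154, 157 and 145 on day 1, 140, 137 and 142 on day 3 and 139, 150 and 149 on day 6. The 2 WT day 0 libraries stood above all others. In WT Mcl1 fell by 0.34 on the log2 scale on day 1 (SE 0.07, edgeR adjusted p = 0.000136), by 0.38 on day 3 and by 0.29 on day 6, the last not past the threshold on the TPM scale (-0.11, adjusted p 1.17e-05 to 0.202 over its alternatives). For the labelled KO it fell by 0.18 on day 3 (SE 0.06, edgeR adjusted p = 0.0115), a call that ended without day 0 replicate 2 (-0.16), on the TPM scale (-0.10) and with scaling by library size only (-0.12), with adjusted p 8.04e-05 to 0.187. On day 0 Mcl1 was 1.24-fold lower in the labelled KO (log2FC -0.32, SE 0.07, edgeR adjusted p = 0.0015). That call ended without WT day 0 replicate 1 (-0.26, adjusted p 1.07e-06 to 0.0666 over its alternatives). On days 3 and 6 the differences were -0.12 and -0.14, without overlap on either day, and passed in 7 and 5 of 15 alternatives (log2FC to -0.27 in each, adjusted p 0.00199 to 0.243 and 0.00163 to 0.208). The day 6 value was -0.20 and past the threshold without WT day 6 replicate 3.

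The effectors fell in both genotypes. Bax, which moves to mitochondria when activated, stood in WT at 123 and 128 CPM on day 0, 95.9, 86.6 and 93.4 on day 1, 81.9, 79.7 and 83.7 on day 3 and 91.7, 94.6 and 74.7 on day 6. In the labelled KO it stood at 162, 157 and 174 on day 0, 112, 73.7 and 106 on day 1, 72.5, 86.1 and 84.9 on day 3 and 75.5, 73.9 and 79.8 on day 6. The labelled KO began above WT with no overlap, and the genotypes overlapped on every later day. Bax fell by 0.53 on the log2 scale by day 6 in WT (SE 0.12, edgeR adjusted p = 0.00076) and by 1.11 in the labelled KO (SE 0.11, edgeR adjusted p = 8.06e-09). It was already lower on day 1, by 0.45 in WT and 0.76 in the labelled KO (-0.59 without replicate 2), and on day 3, by 0.62 and 1.02. These 6 falls passed in every alternative. The day 0 excess of the labelled KO was 1.31-fold (log2FC 0.39, SE 0.13, edgeR adjusted p = 0.0339) and ended in 5 of 14 alternatives (adjusted p 0.00072 to 0.167): without labelled KO day 0 replicate 3 (0.35), without WT day 0 replicate 1 (0.38) or 2 (0.42), by library size only (0.33) and in the paired fit with the replicate block (0.37). Without the labelled KO day 1 replicate 2 a day 1 excess of 0.22 passed the threshold (adjusted p 0.0396 to 0.945 over its alternatives, 0.08 with all libraries), and without day 1 replicate 1 the value was -0.03. On day 6 the difference was -0.19 and passed in 3 of 15 alternatives, both TPM settings (-0.27) and without WT day 6 replicate 3 (-0.32), with adjusted p 0.0181 to 0.466 over all of them. The gene model Gm45808 shares 192 exonic bases with Bax on the same strand.

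Bak1, the effector that resides in the mitochondrial membrane, fell by nearly the same amount in both genotypes. WT libraries held 198 and 210 CPM on day 0, 152, 149 and 157 on day 1, 135, 132 and 127 on day 3 and 109, 120 and 102 on day 6. Labelled KO libraries held 185, 200 and 206 on day 0, 160, 86.4 and 146 on day 1, 120, 117 and 117 on day 3 and 97.1, 103 and 114 on day 6. Each genotype stepped down with every harvest, apart from the low labelled KO day 1 replicate 2, and the genotypes overlapped on every day but day 3. By day 6 the fall was 0.88 on the log2 scale in WT (SE 0.15, edgeR adjusted p = 1.3e-05) and 0.91 in the labelled KO (SE 0.13, edgeR adjusted p = 1.92e-06). On day 3 it was 0.63 and 0.74. The day 1 fall in the labelled KO, 0.59 (SE 0.13, edgeR adjusted p = 0.000619), was 0.36 without replicate 2 and still past the threshold (adjusted p 1.9e-06 to 0.0446 over its alternatives). The day 1 fall in WT, 0.41 (SE 0.15, edgeR adjusted p = 0.019), did not pass on the TPM scale (-0.28), nor without WT day 0 replicate 1 (-0.41) or 2 (-0.37), nor without WT day 1 replicate 1 (-0.36) or 2 (-0.35), with adjusted p 1.32e-05 to 0.115. No genotype difference in Bak1 passed in the main test, while on day 1 the value passed at -0.31 in both TPM settings and at -0.39 without labelled KO replicate 1, and was -0.02 without replicate 2 (adjusted p 0.0188 to 0.849 over its alternatives). The day 3 difference, -0.16 with no overlap, passed in 3 of 15 alternatives: both TPM settings (-0.30 and -0.31, where the median of all genes was -0.08 with the pseudocount of 1) and the fit with only the groups compared (-0.19), with adjusted p 0.00499 to 0.512 over all of them. Ggnbp1 on the opposite strand shares 614 exonic bases with Bak1, and its own group means were 0.168 to 1.65 CPM. Its part in the Bak1 counts was not tested.

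The BH3-only members did not move as a block: Bcl2l11 and Bbc3 rose, Bid fell, Bad fell slightly by day 6 and Pmaip1 differed by genotype. Bcl2l11 encodes Bim, which binds all main survival proteins and is known to be induced when growth factors are withdrawn. WT libraries held 8.62 and 8.57 CPM on day 0, 28.0, 26.5 and 26.2 on day 1, 26.7, 24.6 and 24.9 on day 3 and 30.2, 24.7 and 30.5 on day 6. In libraries labelled KO the values were 12.4, 9.85 and 9.08 on day 0, 30.8, 33.5 and 35.6 on day 1, 28.4, 32.9 and 29.4 on day 3 and 29.8, 26.3 and 28.7 on day 6. Every differentiating library, at 24.6 CPM or more, exceeded every growth medium library, and day 1 was already as high as the later days. The rise in WT was 3.13-fold on day 1 (log2FC 1.64, SE 0.13, edgeR adjusted p = 2.01e-10), 2.95-fold on day 3 and 3.31-fold on day 6 (log2FC 1.73, SE 0.13, edgeR adjusted p = 4.53e-11). Within the labelled KO it was 3.18-fold, 2.89-fold and 2.70-fold (day 6 log2FC 1.43, SE 0.11, edgeR adjusted p = 3.84e-11). All 6 rises passed in every alternative. Between genotypes Bcl2l11 was 1.24-fold higher in the labelled KO on day 1 (log2FC 0.31, SE 0.10, edgeR adjusted p = 0.0159) and 1.19-fold on day 3 (log2FC 0.25, SE 0.10, edgeR adjusted p = 0.0464). Both calls depended on the setting. The day 1 call ended in 7 of 15 alternatives (log2FC 0.25 to 0.36, adjusted p 0.0107 to 0.13), including without labelled KO replicate 3 (0.26) and without WT replicate 2 or 3 (0.29 each). The day 3 call ended in 12 of 15 (log2FC 0.09 to 0.30, adjusted p 0.0302 to 0.602), including without labelled KO replicate 2 (0.19) or 3 (0.27) and without WT replicate 1 (0.29), 2 (0.19) or 3 (0.24).

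Bbc3 encodes Puma, a target of p53 that binds all main survival proteins. WT libraries held 5.59 and 6.44 CPM on day 0, 17.7, 17.5 and 15.2 on day 1, 14, 13.1 and 15.2 on day 3 and 14.5, 15.8 and 11.8 on day 6. Those labelled KO held 6.58, 6.58 and 5.70 on day 0, 13.4, 6.95 and 12.3 on day 1, 10.3, 10.6 and 11.7 on day 3 and 15.3, 17.3 and 16.5 on day 6. WT reached its highest level on day 1 and the labelled KO on day 6, with overlap between the genotypes on days 0 and 6 only. The WT rise was 2.80-fold on day 1 (log2FC 1.48, SE 0.19, edgeR adjusted p = 7.22e-07) and 2.34-fold on day 6 (log2FC 1.22, SE 0.19, edgeR adjusted p = 7.61e-06). For the labelled KO it was 1.73-fold on days 1 and 3 (log2FC 0.79, SE 0.17, with a day 1 value of 1.04 without replicate 2) and 2.60-fold on day 6 (log2FC 1.38, SE 0.17, edgeR adjusted p = 1.24e-07). On day 1 Bbc3 was 1.55-fold lower in the labelled KO than in WT (log2FC -0.63, SE 0.16, edgeR adjusted p = 0.00267), and without labelled KO replicate 2 the value was -0.41 (adjusted p 0.000227 to 0.048 over its alternatives, all past the threshold). On day 3 the difference was -0.38 (SE 0.16, edgeR adjusted p = 0.0621) and passed in 9 of 15 alternatives.

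Bid, which caspase-8 cleaves to link death receptors to the mitochondria, had the largest fitted difference between the genotypes. WT libraries held 27.4 and 32.1 CPM on day 0, 21.7, 17.3 and 25.5 on day 1, 14.5, 13.9 and 11.8 on day 3 and 14.5, 14 and 13.5 on day 6. Labelled KO libraries held 39.7, 44.3 and 46.9 on day 0, 31.3, 29.9 and 32.1 on day 1, 32.5, 24.9 and 26.6 on day 3 and 31.6, 35.8 and 36.8 on day 6. The genotypes did not overlap on any day. Against WT, Bid was 1.47-fold higher on day 0 (log2FC 0.55, SE 0.13, edgeR adjusted p = 0.00451), 1.45-fold on day 1 (log2FC 0.53, SE 0.12), 2.09-fold on day 3 (log2FC 1.06, SE 0.12) and 2.48-fold on day 6 (log2FC 1.31, SE 0.12, edgeR adjusted p = 7.59e-09). The last 3 passed in all 15 alternatives, and the day 0 call ended without WT day 0 replicate 1 (0.46, adjusted p 0.000755 to 0.102 over its alternatives). With time Bid fell in WT by 0.47 on the log2 scale on day 1, 1.15 on day 3 and 1.09 on day 6 (SE 0.13, edgeR adjusted p = 2.51e-07). The WT day 1 fall did not pass without WT day 0 replicate 2 (-0.35) or WT day 1 replicate 2 (-0.28), with adjusted p 0.000704 to 0.0985. In the labelled KO Bid fell by 0.49, 0.64 and 0.33, the last (SE 0.12, edgeR adjusted p = 0.015) not past the threshold on the TPM scale (-0.21) or without day 0 replicate 3 (-0.27) or day 6 replicate 1 (-0.27), with adjusted p 0.00438 to 0.117. Bcl2l13 on the opposite strand shares 628 exonic bases with Bid. Its mean was 54.97 CPM in WT and 79.97 in the labelled KO on day 6 (log2FC 0.54, SE 0.07, edgeR adjusted p = 2.81e-06), the same direction as Bid. From day 0 it fell in WT, from 69.9 CPM, as Bid did, but it did not pass in the labelled KO, at 77.1 CPM on day 0, where Bid fell. Its part in the Bid counts was not tested.

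Pmaip1 encodes Noxa, which binds mainly Mcl1. WT libraries held 4.88 and 5.56 CPM on day 0, 6.03, 5.73 and 7.60 on day 1, 7.10, 5.89 and 6.72 on day 3 and 6.10, 6.43 and 7.46 on day 6. In libraries labelled KO the values were 9.80, 8.96 and 9.08 on day 0, 8.57, 14.7 and 10.8 on day 1, 13.7, 8.13 and 8.53 on day 3 and 11, 15.2 and 12.2 on day 6. All 12 labelled KO libraries lay above all 11 WT libraries. The excess was 1.78-fold on day 0 (log2FC 0.83, SE 0.23, edgeR adjusted p = 0.0124), 1.76-fold on day 1 (log2FC 0.82, SE 0.19), 1.54-fold on day 3 (log2FC 0.62, SE 0.19, edgeR adjusted p = 0.0123) and 1.92-fold on day 6 (log2FC 0.94, SE 0.19, edgeR adjusted p = 0.000344). The day 1 and day 6 differences passed in all 15 alternatives, the day 1 value being 0.56 without labelled KO replicate 2. The day 0 call ended without WT replicate 1 (0.76) or 2 (0.93), with adjusted p 0.000905 to 0.142. The day 3 call ended without labelled KO replicate 1 (0.34) or WT replicate 2 (0.51) and on the TPM scale (0.37 and 0.43 with pseudocounts of 1 and 0.1), with adjusted p 0.00457 to 0.157. With time Pmaip1 passed in the main test in the labelled KO on day 6 alone (log2FC 0.46, SE 0.19, edgeR adjusted p = 0.0323), which ended without day 0 replicate 1 (0.50), 2 (0.44) or 3 (0.44) or day 6 replicate 2 (0.32), with adjusted p 0.00452 to 0.177. It also passed in WT on day 3 with only the groups compared (0.35, adjusted p 0.0455 to 0.466 over its alternatives) and in the labelled KO on day 1 without replicate 1 of that day (0.46, adjusted p 0.0495 to 0.793).

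Bad, a BH3-only protein that survival kinases hold inactive by phosphorylation, was the steadiest member, 1.30-fold between its highest and lowest group mean. WT libraries held 30.0 and 29.4 CPM on day 0, 31.7, 28.8 and 29.2 on day 1, 29.8, 30.0 and 26.6 on day 3 and 23.5, 27.7 and 22.6 on day 6. Those labelled KO held 27.3, 29.7 and 28.1 on day 0, 31.0, 25.2 and 28.0 on day 1, 28.2, 28.1 and 31.1 on day 3 and 22.9, 22.2 and 24.2 on day 6. The genotypes overlapped on every day, and day 6 was the low day in both. The day 6 fall was 0.27 on the log2 scale in WT (SE 0.10, edgeR adjusted p = 0.0216) and 0.30 in the labelled KO (SE 0.09, edgeR adjusted p = 0.00544). The WT fall ended in 9 of 14 alternatives (log2FC -0.36 to -0.09, adjusted p 0.00356 to 0.38), among them without WT day 0 replicate 1 (-0.21) or 2 (-0.29) and without WT day 6 replicate 1 (-0.19) or 3 (-0.15). The labelled KO fall ended on the TPM scale only (-0.16, adjusted p 0.0046 to 0.0662 over its alternatives). Gpr137 on the opposite strand shares 524 exonic bases with Bad and rose over the same interval, from 23.5 to 34.8 CPM in WT and from 21.2 to 36.3 CPM in the labelled KO.

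**Figure D2:**
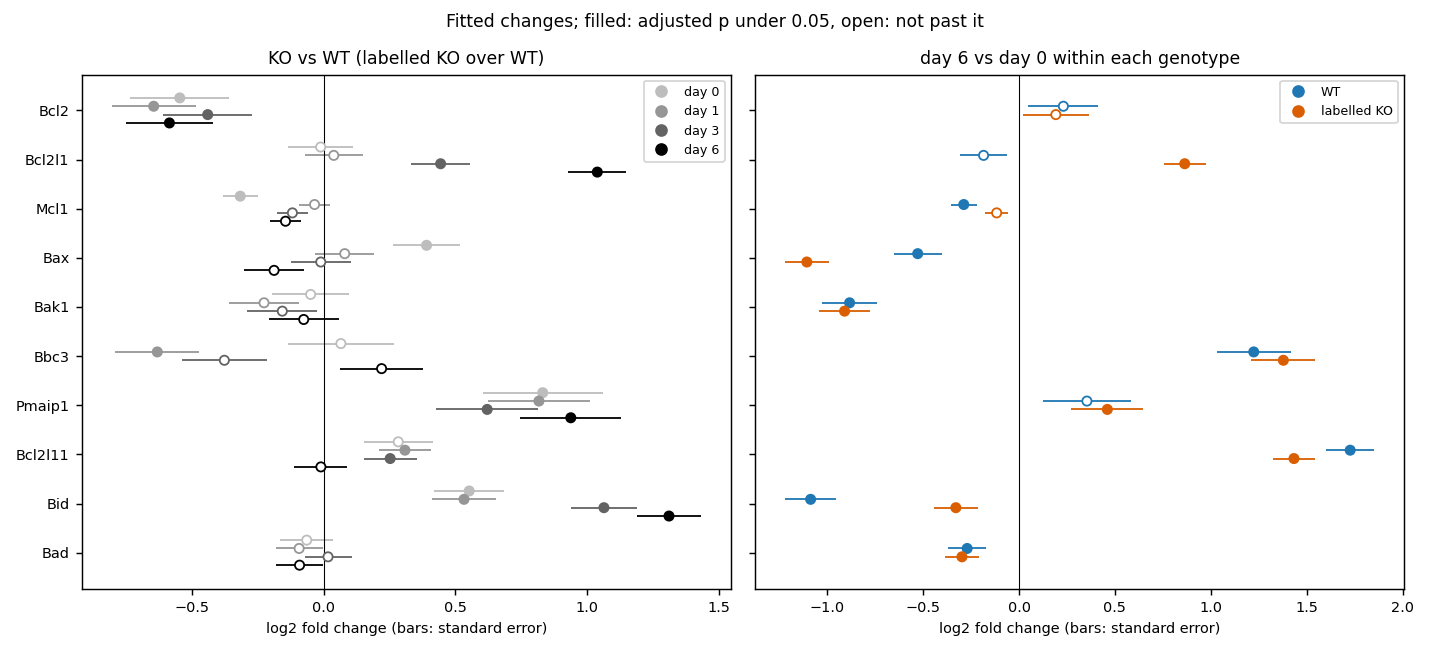
Fitted log2 fold changes with standard errors, the labelled KO over WT on each day at left and day 6 over day 0 within each genotype at right, filled where the edgeR adjusted p was under 0.05. Bid and Pmaip1 lay right of 0 and Bcl2 left of 0 on all 4 days, while Bcl2l1 reached 1.04 on day 6.

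Much of the transcriptome passed the test, so the count of members called is read beside the share of all tested genes called. On day 1 in WT, 3 of the 10 members were called higher and 4 lower (Bcl2, Bbc3 and Bcl2l11 against Mcl1, Bax, Bak1 and Bid), where 27.1% of all tested genes were called higher and 27.6% lower. On day 3 in WT 2 were higher and 5 lower, beside 29.2% and 29% of all genes, and on day 6 again 2 and 5, beside 32.6% and 31.1%. Within the labelled KO the counts were 3 higher and 3 lower on day 1 (27.2% and 25.2% of all genes), 2 and 4 on day 3 (30.4% and 27.2%) and 4 and 4 on day 6 (36.6% and 33.5%). The comparisons with time in a genotype share its day 0 libraries. Between genotypes 3 members were higher and 2 lower in the labelled KO on day 0, where 7.36% and 10.1% of all genes were called. The counts were 3 and 2 on day 1 (22.9% and 19.2%), 4 and 1 on day 3 (24% and 19.2%) and 3 and 1 on day 6 (22% and 20.8%). The day 0 count depended on the 2 WT day 0 libraries and fell when either was left out. Without WT day 0 replicate 1 the log2FC values were 0.76 for Pmaip1, 0.46 for Bid, 0.38 for Bax, -0.26 for Mcl1 and -0.35 for Bcl2. With all libraries they were 0.83, 0.55, 0.39, -0.32 and -0.54. The shares of all genes called with a library left out are not given. The WT day 1 count was 4 without WT day 0 replicate 2, and the day 3 count between genotypes was 3 without any one of 5 of its 6 libraries.

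Whether the change with time differed between genotypes was tested directly as an interaction. It was called for 3 of the 10 members on day 6, where 13% of all tested genes were called in either direction. Bcl2l1 rose in the labelled KO and not in WT, a difference of 1.05 on the log2 scale (SE 0.16, edgeR adjusted p = 7.94e-05), Bid fell less in the labelled KO, a difference of 0.76 (SE 0.18, edgeR adjusted p = 0.0052), and Bax fell more, a difference of -0.58 (SE 0.17, edgeR adjusted p = 0.0238). Only the first passed in all 20 alternatives, at 0.91 to 1.12. The Bid call ended without WT day 0 replicate 2 (0.64, adjusted p 0.000994 to 0.0571 over its alternatives). With WT day 0 replicate 2 left out, 1 member passed. The Bax call ended without labelled KO day 0 replicate 3 (-0.53), WT day 0 replicate 1 (-0.60) or 2 (-0.60), labelled KO day 6 replicate 2 (-0.55) or WT day 6 replicate 2 (-0.51), with adjusted p 0.00224 to 0.0727. No member passed on day 1 or day 3 in edgeR, where 3.95% and 10.7% of all genes did. At an unadjusted p under 0.05 there were 2 members on day 1 and 4 on day 3, and DESeq2 called 1 and 0. The shares of all genes at that threshold and in DESeq2 are not given, so these counts cannot be read against them.

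The balance between the sides was described by summed TPM, with no test of these sums. In WT the effectors summed to 422 TPM ± 3.6 (SD, n = 2) on day 0 and 303 ± 5.2 (n = 3) on day 6, and in the labelled KO to 480 ± 20 and 255 ± 10 (n = 3 each). The survival members summed to 127 ± 7.0 and 121 ± 5.8 in WT and to 105 ± 1.9 and 135 ± 3.2 in the labelled KO. From day 0 to day 6 the BH3-only sum went from 93.5 ± 0.59 to 95.5 ± 4.3 TPM in WT and from 101 ± 2.0 to 109 ± 1.5 in the labelled KO, after 113 ± 7.4 and 114 ± 1.5 on day 1. The ratio of survival to death members (effectors plus BH3-only) was 0.247 ± 0.012 on day 0, 0.246 ± 0.013 on day 1, 0.256 ± 0.0095 on day 3 and 0.303 ± 0.015 on day 6 in WT. For the labelled KO it was 0.180 ± 0.0094, 0.246 ± 0.041, 0.258 ± 0.017 and 0.371 ± 0.018. The labelled KO thus began below WT (0.170 to 0.188 against 0.239 to 0.255) and ended above it (0.353 to 0.389 against 0.286 to 0.315), with overlap on days 1 and 3. The day 0 gap rested on the most abundant members: without Mcl1 and Bax the day 0 means were 0.136 in WT and 0.132 in the labelled KO, and the day 6 means 0.179 and 0.323. Bcl2l1 stayed in that ratio. Of the survival members, only Bcl2l1 had a higher mean in the labelled KO than in WT on day 6 (63.5 against 33.8 TPM). Mcl1 (70.0 against 84.7) and Bcl2 (1.29 against 2.10) had lower means. A ratio without Bcl2l1 was not worked out. The day 1 overlap rested on labelled KO replicate 2, at 0.293. The other 2 libraries, at 0.224 and 0.221, lay below the WT range of 0.235 to 0.261, and their mean was 0.222.

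The survival side also changed in makeup. Mcl1 made up 71.6% ± 1.2 of the survival TPM in WT on day 0 and 70.2% ± 2.4 on day 6, but 67.1% ± 1.3 and 52.0% ± 1.6 in the labelled KO. The ratio of Bax to Bcl2l1 went from 7.31 ± 0.13 to 5.85 ± 0.21 in WT and from 9.70 ± 0.89 to 2.58 ± 0.26 in the labelled KO. Bad was the largest BH3-only mRNA in every group, at 59.4% ± 2.9 of that sum in WT on day 0 and 40.7% ± 2.0 in the labelled KO on day 6. These sums weigh mRNA, not protein, and say nothing of how many cells died.

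**Figure D3:**
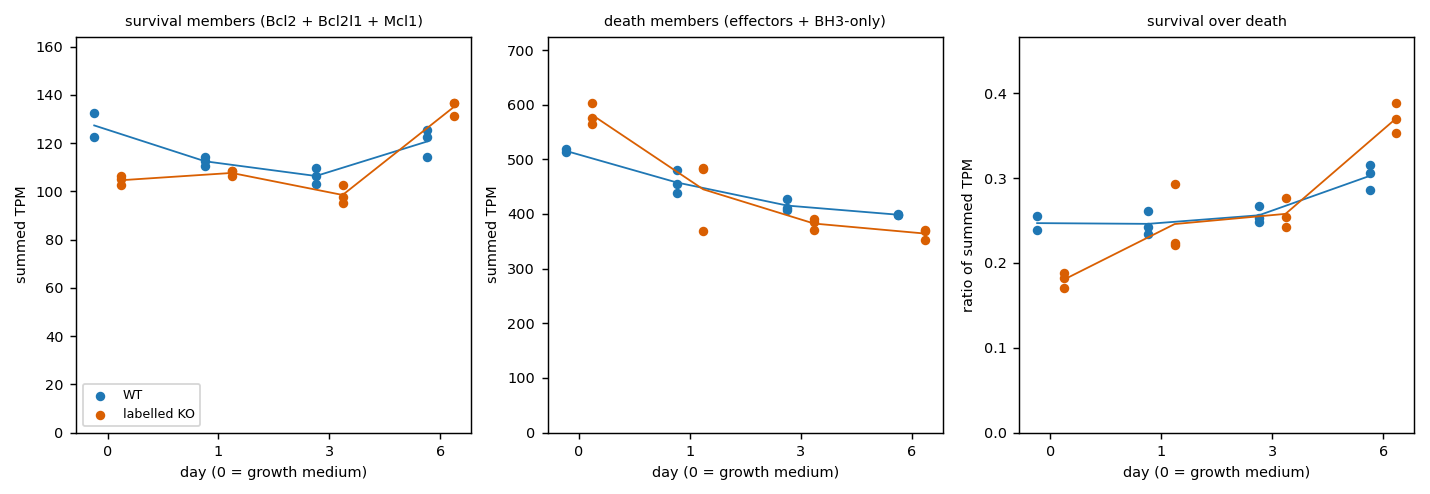
Summed TPM of the survival members, of the death members and their ratio, against day (days evenly spaced), 1 point per library and a line through group means (linear axes from 0). The ratio of the labelled KO lay below WT on day 0 (0.170 to 0.188 against 0.239 to 0.255) and above it on day 6 (0.353 to 0.389 against 0.286 to 0.315), while without Mcl1 and Bax, not plotted, the day 0 means were 0.132 and 0.136. The only survival member with a higher mean in the labelled KO on day 6 was Bcl2l1, at 63.5 against 33.8 TPM.

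Other genes of the pathway were read from lists. Of 15 further family members 8 were measured well enough to test. On day 6, 4 were higher and 2 lower in WT, with a median log2FC of 0.28 beside 0.05 over all genes tested, and 4 and 2 in the labelled KO, with a median of 0.37 beside 0.05. Of all tested genes 32.6% were called higher and 31.1% lower in WT, and 36.6% and 33.5% in the labelled KO. Bmf, another BH3-only gene, rose most, from 2.89 to 27.3 CPM in WT (log2FC 3.24, SE 0.15, edgeR adjusted p = 3.1e-14) and from 1.71 to 19.4 CPM in the labelled KO (log2FC 3.51, SE 0.15). It rose more than Bcl2l11 or Bbc3 by these log2FC values, a difference between genes that was not tested. Bnip3, a BH3-like gene of mitophagy, rose by 1.75 and 2.48, and Bok, a relative of the effectors, fell by 0.77 and 1.41. Between genotypes on day 6, 1 of the 8 was higher and 3 were lower in the labelled KO, with a median of -0.34 beside 0.00 and with 22% of all genes called higher and 20.8% lower. Bcl2l13 was higher (0.54), while Bok (-0.53), Bmf (-0.49) and Bcl2l2 (-0.46) were lower. Bcl2l2, a further survival member (Bcl-w) named here after its values were seen, stood at 45.2 CPM in WT and 32.9 in the labelled KO without overlap, the opposite direction to Bcl2l1, and is not part of the sums above.

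Of 22 genes of the caspase and mitochondrial steps 21 were tested. On day 6, 2 were higher and 10 lower in each genotype, beside 32.6% and 31.1% of all tested genes in WT and 36.6% and 33.5% in the labelled KO. The medians were -0.38 in WT and -0.24 in the labelled KO beside 0.05 over all genes in each. Birc5 (survivin, also a mitotic gene) fell by 2.23 in WT and 1.96 in the labelled KO. Cycs, cytochrome c, fell from 190 to 65.6 CPM in WT (log2FC -1.54, SE 0.15, edgeR adjusted p = 4.41e-09), and Casp8, whose product cleaves Bid, fell from 42.1 to 17 CPM in the labelled KO (log2FC -1.31, SE 0.09, edgeR adjusted p = 5.01e-12). Both means were lower on day 6 in the other genotype too. Cycs went from 202 to 109 CPM in the labelled KO and Casp8 from 38.5 to 22.8 CPM in WT. The 2 genes higher in both genotypes were Birc2, an inhibitor of apoptosis, and Vdac1, a channel of the outer membrane. In the labelled KO on day 6, 7 of the 21 were higher and 5 lower than in WT, with a median of -0.01 beside 0.00 and with 22% of all genes called higher and 20.8% lower. Htra2 (0.84) and Cycs (0.73) were the most raised, and Casp6 (-0.56) and Casp8 (-0.42) the most lowered.

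Of 14 upstream regulators 13 were tested. On day 6, 5 were higher and 4 lower in WT (median -0.15 beside 0.05) and 4 higher and 5 lower in the labelled KO (median -0.15 beside 0.05). These counts stand beside the same shares of all genes, 32.6% and 31.1% in WT and 36.6% and 33.5% in the labelled KO. Trp53, the gene of p53 and so of a known activator of Bbc3, Pmaip1 and Bax, fell from 346 to 154 CPM in WT (log2FC -1.17, SE 0.13, edgeR adjusted p = 4.34e-08) and by 1.35 in the labelled KO. Cdkn1a, a p53 target and an inhibitor of the cell cycle, rose from 197 to 560 CPM in WT and from 194 to 1145 CPM in the labelled KO (log2FC 2.56, SE 0.13, edgeR adjusted p = 2.29e-14). Ddit3 (CHOP), a stress factor, rose by 1.68 and 2.20, and Myc fell by 0.78 and 0.80. Against WT on day 6, 4 of the 13 were higher and 2 lower in the labelled KO, with a median of -0.02 beside 0.00 and with 22% of all genes called higher and 20.8% lower. Among them Cdkn1a (1.03) and Ddit3 (0.51, with overlapping groups) were higher, E2f1 (-0.79) and Jun (-0.35) lower in the labelled KO.

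**Figure D4:**
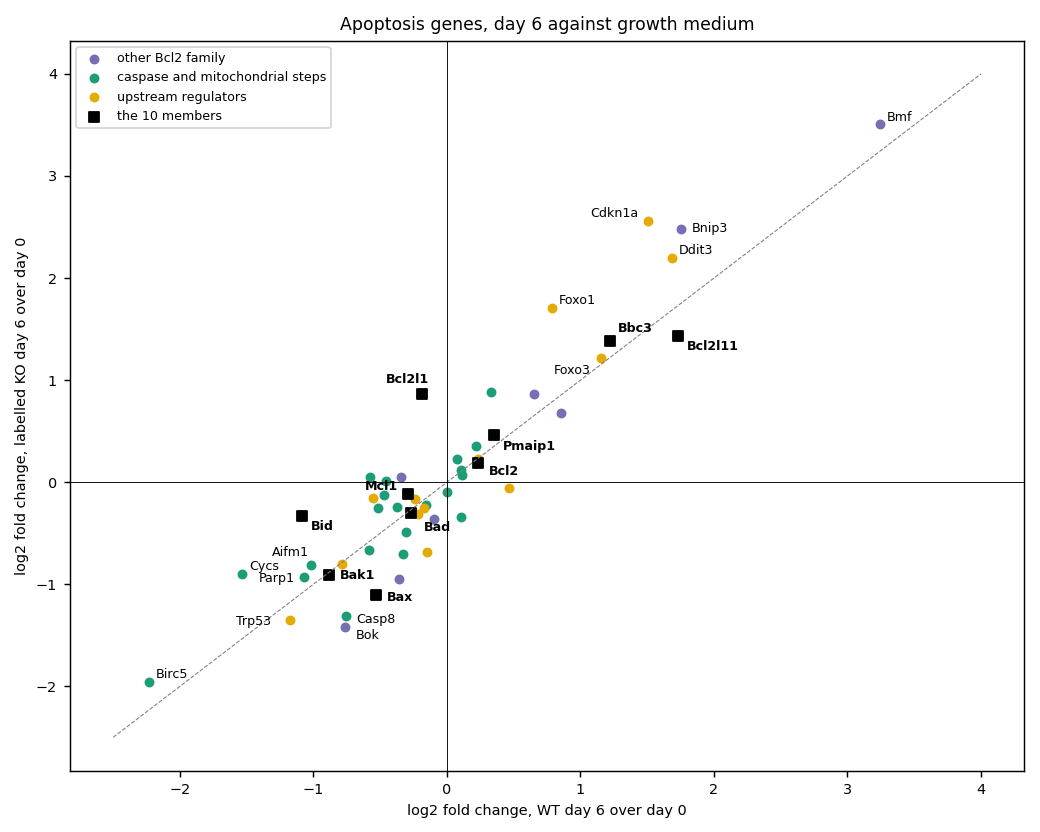
Log2 fold change of day 6 over day 0 in the labelled KO against that in WT for the 10 members (black squares) and the tested genes of the 3 lists (points by list). The dashed line marks equal change, and Bcl2l1 lies furthest above it among the members.

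Genes that followed each member were found by the smallest root mean square difference between group mean log2 CPM values, each centred on its own mean, over the 8 groups among 10225 genes with a mean of at least 5 CPM. The 2 nearest to Bcl2l1 were Capn1 and Ubash3b (0.13 each, where Bcl2l1 itself spanned 1.42), to Bid Trib1 and Tom1l1 (0.19 and 0.21, span 1.70) and to Bcl2l11 Klhl24 and Arhgap29 (0.13 and 0.16, span 1.94). For Bbc3 they were Tanc2 and Ilvbl (0.12 and 0.13, span 1.47), for Pmaip1 Zfpm2 and Emc2 (0.13 each, span 1.27) and for Bcl2 Ddt and Rarg (0.11 each, span 1.19). For the effectors they were Cd109 and Plpp2 with Bax (0.09 each, span 1.10) and Emd and Arhgdia with Bak1 (0.06 and 0.08, span 0.96). Mcl1 was nearest to Ugdh and Steap2 (0.05 and 0.06, span 0.50) and Bad to Commd4 and Zfp687 (0.05 each, span 0.37). These are likenesses of shape only, over 8 group means of the same libraries.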

How the data were processed

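The authors deposited 1 table of estimated counts (whole numbers) and 1 of TPM per gene symbol, made with Bowtie2 and RSEM on mm10, per the submitters' processing notes. The versions, the annotation, the rounding and any use of strand are not given in the sources used here. Every column was matched to a sample by its label. Members and lists were chosen with earlier results of these data known. Counts were tested in R 4.3.3 with edgeR 4.0.16 and its quasi-likelihood method (TMM scaling, filterByExpr with a minimum count of 10 and a minimum total of 15, 1 group-means model over 23 libraries, 13 contrasts, Benjamini-Hochberg over 14187 genes, threshold 0.05), tested beforehand on simulated data. Standard errors come from the F statistic, and log2 CPM used a prior count of 2. No pair of libraries within a group agreed within counting noise (chi-square per degree of freedom 3.10 to 61.3 over 22 pairs). Each was counted as 1 sample, though separate libraries of 1 culture could also differ by more than that noise. Named genes outside the members were, per list, the 2 most raised and 2 most lowered past the threshold with at least 5 CPM in a group mean, on day 6 against day 0 in each genotype and between genotypes on day 6, and the 2 genes most like each member. Alternatives were other scalings (RLE, library size only), no filter or a minimum mean count of 50, DESeq2 (1.42.0), limma (3.58.1) on log2(TPM + 1) and log2(TPM + 0.1), the replicate block, only the groups compared, and each library left out. Leaving out libraries from the TPM ratio was added after seeing the data. Sequences are from RefSeq and positions from GENCODE, both on GRCm38.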

Additional observations from a re-analysis of the deposited data

Results flagged for a closer look

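The change from day 0 to day 6 differed between the genotypes for 3 members by the interaction test (edgeR, adjusted over all tested genes). Of all tested genes 13% were called. Only the Bcl2l1 call passed in all 20 alternatives, and those of Bid and Bax did not. Bcl2l1 rose in the labelled KO and not in WT, a difference of 1.05 on the log2 scale (SE 0.16, adjusted p = 7.94e-05). Bid fell less in the labelled KO, by a difference of 0.76 (SE 0.18, adjusted p = 0.0052). Bax fell more in the labelled KO, by a difference of -0.58 (SE 0.17, adjusted p = 0.0238), from a higher start. Single outlying values were not tested in these groups of 2 or 3 libraries.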

How the results depend on the processing

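Of 130 results (10 members in 13 contrasts), 63 passed the threshold, 42 of them in every alternative run and 21 not in some. A further 18 passed only in an alternative, and 49 passed in none (log2FC -0.44 to 0.35). Over the 1227 alternative values of the other 81, 1087 kept direction and side of the threshold, 90 lost it, 48 gained it and 2 changed sign. Those 2 missed the threshold with all libraries: Bax between genotypes on day 1 (-0.033 to 0.224 with each library left out, the highest past the threshold) and Bad between genotypes on day 6 (-0.183 to 0.0028 with each library left out, and past the threshold at -0.23 in both TPM settings). The shares of all genes called in the alternatives are not given, so the counts below are not read as a result about the members. The number of members called between genotypes rose to 8 on day 3 with only the groups compared and to 7 on day 6 with both TPM settings. For the interaction it was 1 on day 1 with DESeq2, and on day 3 it was 1 with both TPM settings and 2 with only the groups compared. With each library left out it ran from 4 to 7 in WT on day 1, 0 to 4 between genotypes on day 0, 3 to 4 between genotypes on day 3, 0 to 1 for the interaction on days 1 and 3, and 1 to 3 on day 6. The lone WT day 0 library left in 2 of those fits was assumed to vary like the other groups. The causes were not tested.

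The survival to death ratio on days 0, 1, 3 and 6 for WT came to 0.136, 0.132, 0.121 and 0.179, and for the labelled KO to 0.132, 0.141, 0.159 and 0.323, without Mcl1 and Bax, the most abundant of each side. Summed CPM gave WT ratios of 0.625, 0.602, 0.636 and 0.752 and labelled KO ratios of 0.465, 0.603, 0.619 and 0.819. Without Mcl1 and Bax the day 0 means were nearly equal. Scaling by library size only moved the median log2FC of all genes by at most 0.09 in any comparison. On log2(TPM + 1) it moved by over 0.1 in 4: between genotypes from 0.04 to -0.08 on day 3 and from 0.00 to -0.10 on day 6, and in WT from 0.02 to 0.13 on day 3 and from 0.05 to 0.15 on day 6. Member changes on the TPM scale are to be read against these medians, among them the genotype calls that Mcl1, Bak1, Bax and Bad gained there.

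Same-numbered libraries showed little shared deviation (mean correlation -0.09 to 0.05 over 10 comparisons). With 2 or 3 pairs in each comparison a weak pairing could be missed, and the labels do not say whether the numbers pair the samples. The replicate block ended 1 call, Bax between genotypes on day 0 (0.37, adjusted p = 0.0573), and changed no other. Bcl2, Pmaip1 and Bbc3 rest on the fewest counts (79, 111 and 123 in their lowest libraries).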
